A study of Mus musculus with 6 samples.

Results

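The natriuretic peptide system was described in the hearts of mouse pups through 8 genes, those of its peptides (Nppa, Nppb, Nppc), its receptors (Npr1, Npr2, Npr3) and the proteases that process the peptides (Corin, Furin). The genes were taken by symbol, and all 8 had a row among the 52550 mouse genes of the count files. Whole hearts of postnatal day 7 were compared in 2 groups of 3 libraries. One group is labelled control (genotype "ctrl") and the other GR-cKO, in which the gene of the glucocorticoid receptor, Nr3c1, was deleted in cardiomyocytes. The Cre line, the deleted exon, the strain, the alleles that the control animals carry and the number of animals behind a library were not given in the sources used here. The labels number the 3 libraries of each group as biological replicates, with no word on litters or animals, so that p-values measure the spread between these samples. The question was what the loss of the receptor from heart muscle cells does to gene expression of the whole organ soon after birth.

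Nppa encodes atrial natriuretic peptide (ANP) and Nppb brain natriuretic peptide (BNP), hormones that heart muscle cells release when the wall is stretched. Nppc encodes C-type natriuretic peptide, which is made mainly outside heart muscle. The receptors encoded by Npr1 (for ANP and BNP) and Npr2 (for C-type peptide) are guanylyl cyclases that make cGMP, whereas the product of Npr3 lacks a cyclase domain and clears all 3 peptides by taking them into the cell. Corin, a membrane protease of heart muscle cells, cuts the ANP precursor, and Furin, a protease of the secretory pathway, cuts many precursors including that of BNP. In the fetus Nppa is active in ventricles and atria, and after birth it becomes largely restricted to the atria.

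The promoters of the peptide genes are shown because Nppa and Nppb lie next to each other on chromosome 4, 13516 bases apart and on the same strand, yet were expressed at very different levels. Each line gives the 250 bases before the transcription start in RefSeq (GRCm38.p6). Matches to GATAA (the core bound by GATA factors), TNAAGTG (NKX2-5) and TATAAA (the TATA box) on either strand are in capitals. GENCODE, the source of the gene coordinates given below, starts Nppb at 147985788, inside its RefSeq window.
Nppa (chr4:148000472-148000721, plus strand): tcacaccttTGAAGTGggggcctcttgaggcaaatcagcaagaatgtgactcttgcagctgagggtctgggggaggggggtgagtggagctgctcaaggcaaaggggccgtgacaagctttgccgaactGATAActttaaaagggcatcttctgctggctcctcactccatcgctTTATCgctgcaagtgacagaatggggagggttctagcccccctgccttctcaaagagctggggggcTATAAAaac
Nppb (chr4:147985650-147985899, plus strand): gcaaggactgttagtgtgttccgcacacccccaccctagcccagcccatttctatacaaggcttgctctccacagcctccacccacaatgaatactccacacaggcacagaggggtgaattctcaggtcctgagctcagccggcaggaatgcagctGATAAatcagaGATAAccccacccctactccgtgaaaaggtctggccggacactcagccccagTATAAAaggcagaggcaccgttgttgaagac
Nppc (chr1:86670574-86670823, minus strand): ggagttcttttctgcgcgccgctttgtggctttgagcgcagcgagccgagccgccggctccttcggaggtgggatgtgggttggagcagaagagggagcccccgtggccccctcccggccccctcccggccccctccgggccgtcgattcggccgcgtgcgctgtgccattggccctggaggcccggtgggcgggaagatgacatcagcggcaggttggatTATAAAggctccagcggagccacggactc

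The windows of Nppa and Nppb each held 2 matches to GATAA, and that of Nppc held 0. At least 1 match stood in 22.6% and at least 2 in 4.28% of the 32851 windows of this length in RefSeq. In Nppa the GATAA matches lay 121 to 117 and 75 to 71 bases before the start, and in Nppb 94 to 90 and 83 to 79. All 3 peptide genes had a TATAAA match, which 12.4% of windows had. It lay 9 to 4 bases before the start in Nppa, 31 to 26 in Nppb and 29 to 24 in Nppc. All distances hold for the RefSeq starts only. The TNAAGTG match of Nppa (10.1% of windows) lay 241 to 235 bases before its start. Next to it Nppa had a match to the T-box letters GGTGTGA (3.33% of windows), and Nppb had one to the M-CAT letters CATTCC (12.6%). The letters of the glucocorticoid response element were searched as a palindrome, GNACA and TGTNC with 3 bases between them (0.387% of windows), and as its more conserved arm TGTTCT. Neither occurred in the windows of the 3 peptide genes. Of all 8 genes, which had 9 windows, Npr3 alone had a TGTTCT match, which 16.1% of all windows had. One of the 2 Furin windows had a TNAAGTG and a TATAAA match, and those of Npr1, Npr2 and Corin had no match to any of the 9 motifs searched. No match to AP-1 (TGANTCA, 6.75% of windows) or to the CArG box bound by serum response factor (1.47%) was present in any of the 9 windows. A match describes letters and does not show binding. Only exact matches were counted, so a missing match does not show that a site is absent.

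Libraries held 17824953 to 22574722 reads of mouse genes, from the 3′ ends of transcripts, and 18851 to 19673 genes had a read. Levels are given as CPM, the usual scaling of counts to a common library size, after adjustment of the library sizes by the trimmed mean of M-values (TMM). A transcript gives 3′ reads irrespective of its length, so that these values can be set side by side between genes without a length correction. Values of single hearts follow the order of replicates 1, 2 and 3 throughout. Nr3c1 had 2618, 2558 and 1902 reads in the control hearts, against 1031, 1044 and 1045 in the GR-cKO hearts. It fell to 0.472 times the control level (log2 fold change -1.08, SE 0.125, edgeR adjusted p = 0.00101). Reads from the 3′ end do not show whether a deleted exon is missing, so this level is no check of the deletion. The markers of heart muscle, such as Myh6 and Tnnt2, were present in all libraries, and the 10 on the list summed to 44614 to 48882 CPM in control against 45459 to 55594 CPM in GR-cKO hearts. In 1 library, GR-cKO replicate 3, Gm42418, a transcript annotated over ribosomal RNA sequence, took 10.9% of reads against 5.47 to 7.69% in the others. Xist and genes of the Y chromosome marked replicate 1 of each group as female and the other 4 libraries as male.

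In control hearts the 8 genes differed widely in level. Nppa stood at 1577 ± 402 CPM (SD, n = 3), rank 51 of all genes, and made up 83.7% of the summed level of the 8 and 0.117 to 0.198% of the mouse reads of a library. Furin followed at 136 ± 5.25 CPM, Corin at 90.3 ± 8.35 CPM and Npr3 at 30.4 ± 3.19 CPM. Each of these lay apart from the next, with no overlap between the 3 control libraries of one gene and those of the other. Npr1 (14.2 ± 2.44 CPM) and Npr2 (13.7 ± 3.22 CPM) overlapped and could not be ordered. Nppb was lower still, at 8.75 ± 1.23 CPM, apart from Npr2 in control hearts and overlapping it in GR-cKO hearts. Nppc had 0 to 3 reads per library.

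**Figure D1:**
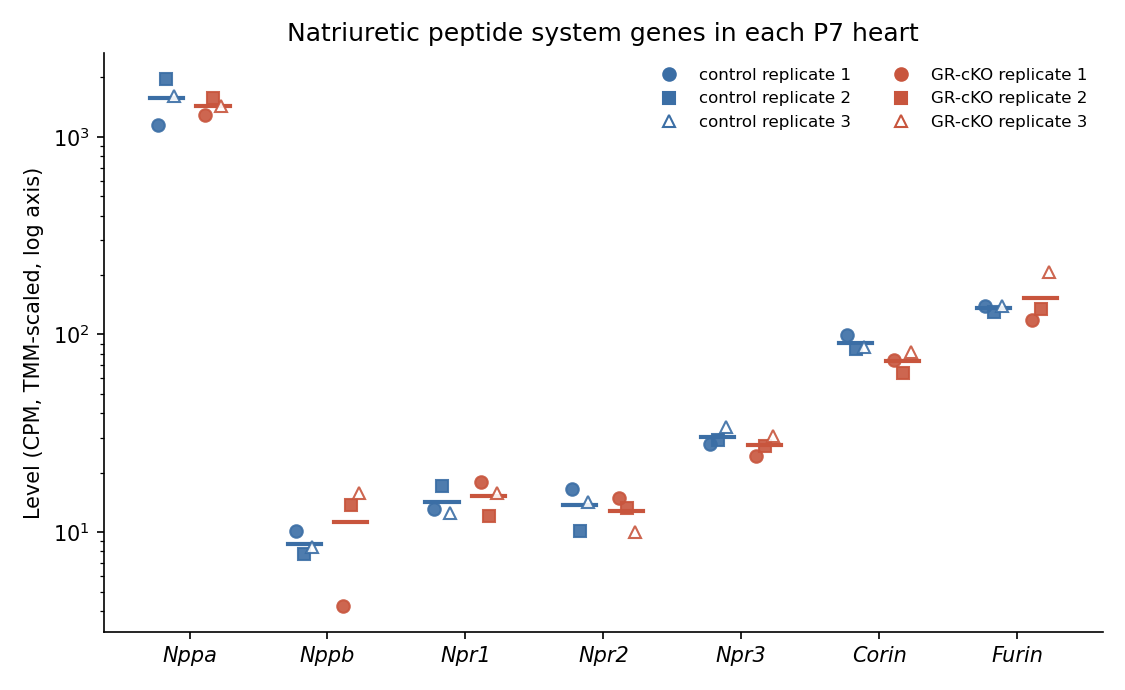
Level in CPM (log axis) of the 7 tested genes in each library, with control in blue, GR-cKO in red, marker shapes for replicates 1, 2 and 3 and bars at the group means. Corin is the gene whose groups do not overlap, and the widest scatter is that of Nppb in GR-cKO hearts.

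None of the 7 genes with enough reads for a test passed in GR-cKO against control, where 0.00673% of the 14860 genes tested did, which is Nr3c1 alone. With edgeR's quasi-likelihood test the adjusted p was 0.998 or 0.999 for each of the 7, and DESeq2 and limma voom also called 0. At an unadjusted p under 0.05 there was 1 of the 7, Corin, where 4.2% of all genes had such a p. For 1 of the 7, again Corin, the groups did not overlap, as for 9.97% of all genes. Point estimates were negative for 4 of the 7, where 48.7% of all genes had a negative one, with a median log2 fold change of -0.10 against 0.01 over all genes. In the edgeR fit of all 6 hearts, the 95% interval of 6 of the 7 excluded a change of 1.5-fold in either direction, as for 47.8% of all genes. For Npr2 and Corin this was narrow, with intervals down to 0.677 times control, and the alternative fits were not examined for it. The exception among the 7 was Nppb. In whole hearts, fewer cells of a type and less RNA per cell cannot be told apart.

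**Figure D2:**
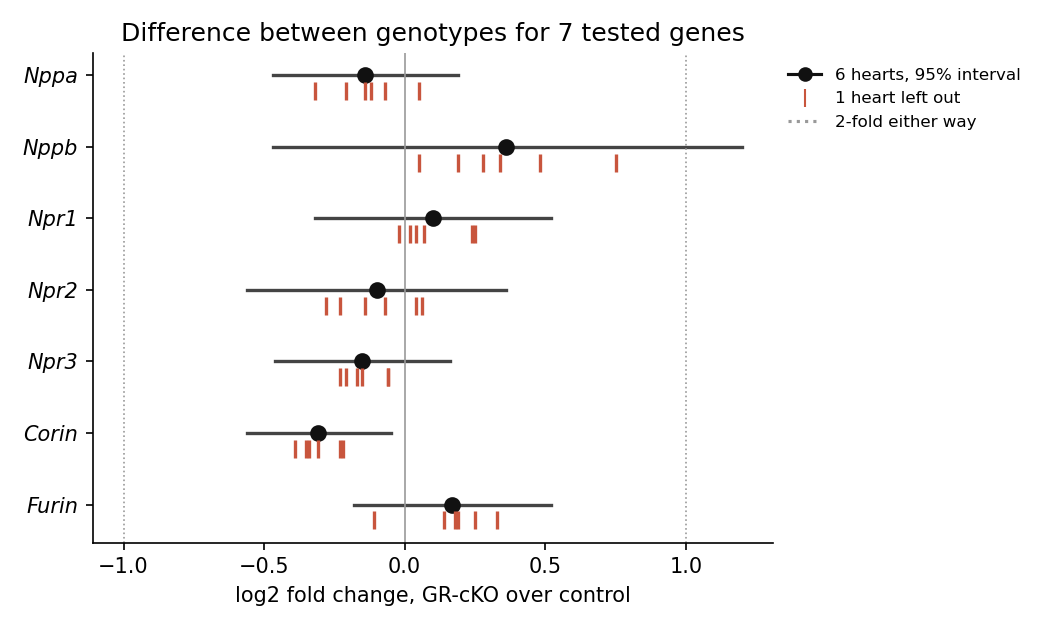
Log2 fold change of GR-cKO over control for the 7 tested genes, with black points and 95% intervals from the edgeR fit of 6 hearts and red ticks for the 6 fits that leave out 1 heart each. The Corin interval (-0.56 to -0.05) and all of its ticks lie below 0, and the Nppb interval (-0.47 to 1.20) is the widest. As the groups do not overlap for Corin, leaving out 1 heart could hardly move its ticks past 0.

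Nppa (ENSMUSG00000041616; chromosome 4, 148000722 to 148002079, plus strand) had a level of 1155, 1957 and 1620 CPM in the control hearts. The GR-cKO hearts had 1290, 1566 and 1439 CPM. All 3 GR-cKO hearts lay inside the range of the control hearts. For Nppa, GR-cKO over control gave a log2 fold change of -0.14 (SE 0.154 and 95% interval -0.47 to 0.19, edgeR adjusted p = 0.998), an interval from 0.723 to 1.14 times control. The control hearts carried most of the spread, with a coefficient of variation of 25.5% against 9.68% in GR-cKO hearts. The SD pooled over the groups came to 20% of the mean of all 6 hearts, above the same value for 95% of the 119 genes within 2-fold of its level, whose median was 9.35%. Without control replicate 2, the heart with the highest level, the log2 fold change turned to 0.05, and without control replicate 1, the lowest, it was -0.32 (unadjusted p = 0.0348, edgeR adjusted p = 1). The antisense gene Gm13054, which overlaps Nppa exons, had 0 to 5 reads per library.

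Some markers of atrial muscle were highest in replicate 2 of each group, as Nppa was, and others were not. The 15 atrial markers, all of them tested and Nppa not among them, summed to 2762, 3769 and 2949 CPM in the control hearts, against 2326, 3540 and 2727 CPM in the GR-cKO hearts. The heart highest in Nppa in each group, replicate 2, was also the highest of its group in this sum. Of the 15 markers 8 were highest in replicate 2 of both groups (Myl7, Myl4, Sln and Bmp10 among them) and 7 were not (Pam, Clu and Kcna5 among them). Pam, an enzyme that amidates peptides and is abundant in atrial granules, was at 857, 824 and 891 CPM in control against 788, 872 and 886.5 CPM in GR-cKO hearts. Myl7, the atrial light chain of myosin, was at 760, 1377 and 866 CPM in control against 576, 1233 and 800 CPM in GR-cKO hearts. Sln, which encodes the atrial calcium pump inhibitor sarcolipin, was at 154, 258 and 166 CPM and at 109, 210 and 129 CPM. Nppa reads came to 0.418, 0.519 and 0.549 of the atrial reads in control hearts and 0.554, 0.443 and 0.528 in GR-cKO hearts. The mean log2 ratio differed by 0.04 between groups (exact permutation p = 0.6, 2-sided, and 3 against 3 cannot give less than 0.1). Among the atrial markers 11 estimates were negative and 4 positive (median log2 fold change -0.11), where 48.7% of all genes had a negative one. Of these markers 0 passed the edgeR test (0 at an unadjusted p under 0.05, and 0 whose groups did not overlap). How much atrial tissue each sample held, and its part in the Nppa values, was not tested.

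**Figure D3:**
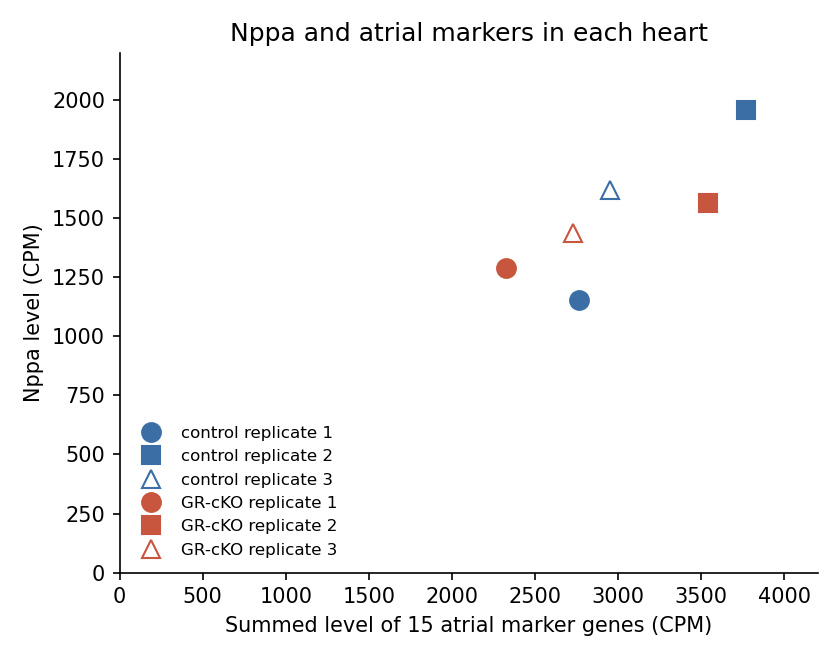
Nppa level against the summed level of 15 atrial marker genes, both in CPM, with 1 point per heart. Replicate 2 of each group is highest on the x axis (3769 and 3540 CPM) and highest in Nppa in its group (1957 and 1566 CPM).

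Nppb (ENSMUSG00000029019; chromosome 4, 147985788 to 147987205, plus strand) was the member with the widest scatter. It was at 10.1, 7.71 and 8.44 CPM in the control hearts (231, 150 and 161 reads). The GR-cKO hearts had 4.24, 13.7 and 15.8 CPM (76, 291 and 293 reads). GR-cKO replicate 1 lay below all control hearts, and the other 2 GR-cKO hearts lay above them. The Nppb estimate was a log2 fold change of 0.36 (SE 0.379 and 95% interval -0.47 to 1.20, edgeR adjusted p = 0.998), an interval that still holds a 2-fold rise. Its coefficient of variation was 54.7% in GR-cKO and 14.0% in control hearts, and its SD pooled over the groups, 44.3% of the mean of all 6 hearts, exceeded that of 99.0% of 4117 genes within 2-fold of its level. Without GR-cKO replicate 1 the log2 fold change was 0.75 (unadjusted p = 0.00462, edgeR adjusted p = 0.975), and without GR-cKO replicate 3 it was 0.05.

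Nppb and its neighbour Nppa ranked the hearts differently. The ratio of Nppb to Nppa reads was 0.00874, 0.00394 and 0.00521 in the control hearts, against 0.00329, 0.00876 and 0.0110 in the GR-cKO hearts. The highest and the lowest ratio were both in GR-cKO hearts. On the log2 scale the means were -7.47 ± 0.58 and -7.20 ± 0.92 (SD, n = 3 each), a difference of 0.27 (exact permutation p = 0.7, 2-sided).

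Nppc (ENSMUSG00000026241; chromosome 1, 86666291 to 86670571, minus strand) had 0, 1 and 3 reads in the control hearts, against 1, 0 and 0 reads in the GR-cKO hearts. No library exceeded 3 reads, and no fold change is given. A count of 0 allows up to 3 reads, or 0.131 CPM in control replicate 1, and 0.141 and 0.161 CPM in GR-cKO replicates 2 and 3, for counting error only. At this depth a transcript of C-type natriuretic peptide was hardly detectable in the tissue.

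The receptor genes summed to 57.5, 56.5 and 60.8 CPM in the control hearts, against 57.1, 52.7 and 56.5 CPM in the GR-cKO hearts. Npr3 (ENSMUSG00000022206; chromosome 15, 11839896 to 11907287, minus strand), the clearance receptor, was the most abundant. It was at 27.9, 29.3 and 34.0 CPM in control against 24.4, 27.4 and 30.6 CPM in GR-cKO hearts, groups that overlapped. Npr3 had a log2 fold change of -0.15 (SE 0.148 and 95% interval -0.46 to 0.16, edgeR adjusted p = 0.998). Its direction was negative in each of the 13 alternative fits, from -0.23 without GR-cKO replicate 3 to -0.06 without control replicate 3 or GR-cKO replicate 1. Markers of endothelium and endocardium, where Npr3 is known to be active, summed to 1735 to 2020 CPM in control against 1900 to 2096 CPM in GR-cKO hearts. Of these 13 markers 7 were higher and 6 lower, with a median log2 fold change of 0.00.

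Npr1 (ENSMUSG00000027931; chromosome 3, 90450591 to 90465866, minus strand), the receptor of ANP and BNP, was at 13.1, 17.01 and 12.5 CPM in the control hearts, against 17.9, 12.1 and 15.8 CPM in the GR-cKO hearts. Npr1 had a log2 fold change of 0.10 (SE 0.201 and 95% interval -0.32 to 0.52, edgeR adjusted p = 0.999). Its estimate turned to -0.02 without GR-cKO replicate 1. Npr2 (ENSMUSG00000028469; chromosome 4, 43631935 to 43651244, plus strand), the receptor of C-type peptide, had 16.5, 10.2 and 14.3 CPM in the control hearts, against 14.9, 13.3 and 10.1 CPM in the GR-cKO hearts. Npr2 had a log2 fold change of -0.10 (SE 0.219 and 95% interval -0.56 to 0.36, edgeR adjusted p = 0.999). This turned to 0.06 without control replicate 1 and to 0.04 without GR-cKO replicate 3. In both genes the groups overlapped over nearly their whole range. Antisense genes that overlap exons of Npr1 and Npr2 (Gm16048 and Gm12473) had 0 reads.

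Npr3 supplied 48.5, 51.9 and 55.9% of receptor reads in the control hearts, against 42.7, 52.0 and 54.2% in the GR-cKO hearts. The clearance receptor thus gave 1.72 to 2.71 reads for each Npr1 read in control hearts and 1.36 to 2.27 in GR-cKO hearts. The mean log2 ratio was 1.11 ± 0.33 (SD, n = 3) for the control group and 0.86 ± 0.38 (SD, n = 3) for the GR-cKO group (difference -0.25, exact permutation p = 0.5, 2-sided). Npr1 to Npr2 ran from 0.791 to 1.67 in control and from 0.911 to 1.57 in GR-cKO hearts (difference of mean log2 ratios 0.19, exact permutation p = 0.7, 2-sided). Either cyclase receptor could be the more abundant within a group.

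**Figure D4:**
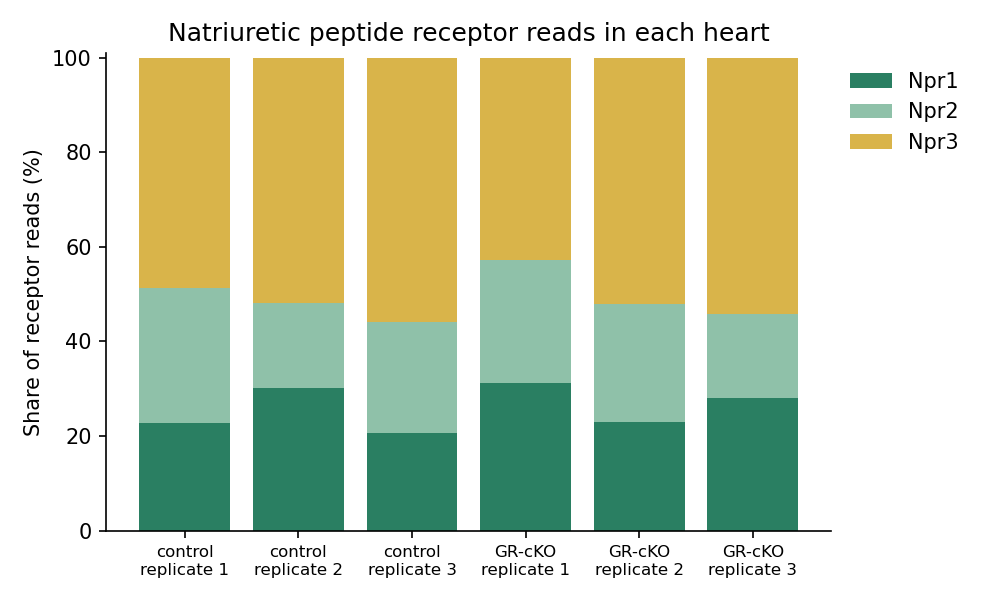
Share of Npr1, Npr2 and Npr3 in the reads of the 3 receptor genes, in percent, with 1 stacked bar per heart. Npr3 takes 42.7 to 55.9% of receptor reads, the largest share in each of the 6 hearts.

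Corin (ENSMUSG00000005220; chromosome 5, 72300025 to 72504473, minus strand) was the member with the smallest p. It was at 99.9, 84.5 and 86.6 CPM in the control hearts, against 74.2, 63.5 and 81.5 CPM in the GR-cKO hearts. All 3 GR-cKO hearts lay below all 3 control hearts, by the small margin of 81.5 against 84.5 CPM at the nearest, and 5.27% of all genes had GR-cKO entirely lower. For Corin this was a log2 fold change of -0.31 (SE 0.123 and 95% interval -0.56 to -0.05), or 0.809 times control. The unadjusted edgeR p was 0.0223, where 2.13% of all genes were lower with such a p under 0.05, and the adjusted p 0.998, so that Corin did not pass. The estimate was negative in each of the 13 alternative fits, from -0.39 when GR-cKO replicate 3 was left out to -0.22 when GR-cKO replicate 2 was, with edgeR, DESeq2 or limma adjusted p-values of 0.848 to 1. Corin is a gene of heart muscle cells, and of the 10 markers of these cells 9 estimates were positive and 1 negative (median log2 fold change 0.13). Over all genes 48.7% of estimates were negative. The part of cell numbers in the Corin values was not tested. The 5 genes that overlap Corin had at most 2 reads in a library.

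The ratio of Corin to the gene of its substrate overlapped between the groups. Corin reads were 0.0864, 0.0432 and 0.0534 of Nppa reads in the control hearts, against 0.0575, 0.0405 and 0.0566 in the GR-cKO hearts. The difference of the mean log2 ratios was -0.20 (exact permutation p = 0.7, 2-sided), within the spread of the control hearts (SD 0.51).

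Furin (ENSMUSG00000030530; chromosome 7, 80388585 to 80405436, minus strand) was at 139, 130 and 139 CPM in the control hearts, the tightest values of all members. The GR-cKO hearts had 119, 134 and 206 CPM. GR-cKO replicate 3 stood above every other heart, and GR-cKO replicate 1 below every other. Furin had a log2 fold change of 0.17 (SE 0.163 and 95% interval -0.18 to 0.52, edgeR adjusted p = 0.998). Without GR-cKO replicate 3 it turned to -0.11, and without GR-cKO replicate 1 it was 0.33 (unadjusted p = 0.0525, edgeR adjusted p = 0.975). Its coefficient of variation was 3.86% in control and 30.5% in GR-cKO hearts, and its SD pooled over the groups was 23% of the mean of all 6 hearts, above that of 97.1% of 1703 genes within 2-fold of its level, whereas Npr1, Npr2, Npr3 and Corin exceeded 38.6 to 76.5% of the genes of like level. GR-cKO replicate 3 is also the library with the most Gm42418 reads, and the part of this in its Furin value was not tested. Gm44851, antisense to the start of Furin, had at most 26 reads in a library.

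Genes downstream of the receptors form the cGMP pathway, in which cGMP activates protein kinase G and is broken down by phosphodiesterases. Of 22 listed genes 18 were tested and 0 passed the edgeR test. Among these 14 estimates were negative and 4 positive, where 48.7% of all genes had a negative one. The median log2 fold change was -0.19 against 0.01 over all genes. An unadjusted p under 0.05 was found for 1, as for 4.2% of all genes. The groups did not overlap for 2, as for 9.97% of all genes. The smallest p was that of Vasp, which encodes an actin regulator and kinase G substrate, at 121 ± 13.1 CPM in control against 152 ± 24.8 CPM in GR-cKO hearts (log2 fold change 0.33, SE 0.132, unadjusted p = 0.0235, edgeR adjusted p = 0.998). Gucy1a1, a subunit of the nitric oxide-sensitive guanylyl cyclase, was at 77.6 ± 8.04 and 65.9 ± 4.11 CPM (log2 fold change -0.24, SE 0.119, edgeR adjusted p = 0.998), and its groups did not overlap. Mrvi1, which encodes the kinase G substrate IRAG, was at 23.5 ± 4.55 and 18.9 ± 1.91 CPM (log2 fold change -0.32, SE 0.173, edgeR adjusted p = 0.998).

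A list of 18 genes held enzymes known or proposed to break down or process peptides, and also Ostn, Erfe and Gdf15, which encode secreted factors and no enzyme. Of these 18 genes, 11 were tested and 0 passed the edgeR test, with 9 negative and 2 positive estimates and a median log2 fold change of -0.12. Over all genes 48.7% of estimates were negative. Among the 11 tested, 1 had an unadjusted p under 0.05 (4.2% of all genes) and 2 had groups that did not overlap (9.97% of all genes). Ide, which encodes the insulin-degrading enzyme that also cleaves natriuretic peptides, was at 130, 118 and 173 CPM in the control hearts, against 81.7, 120 and 108 CPM in the GR-cKO hearts. Its groups overlapped, and its log2 fold change was -0.44 (SE 0.157, unadjusted p = 0.0122, edgeR adjusted p = 0.998). Erfe, which encodes the hormone erythroferrone, was at 1.17 ± 0.366 and 0.465 ± 0.183 CPM, from 5 to 34 reads per library (log2 fold change -1.32, SE 0.678, edgeR adjusted p = 0.998), with all GR-cKO hearts below the control hearts. Pcsk5, a proprotein convertase, was at 8.38 ± 1.52 and 6.50 ± 2.16 CPM (log2 fold change -0.36, SE 0.268, edgeR adjusted p = 0.998). Ostn, which encodes osteocrin, a ligand of the clearance receptor, had 0 reads in all 6 libraries.

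A list of 26 transcription factors and cofactors with known roles in heart muscle genes, several of which act on Nppa or Nppb, was examined. All 26 were tested and 0 passed the edgeR test, with 15 positive and 11 negative estimates and a median log2 fold change of 0.03. Of these 1 had an unadjusted p under 0.05 (4.2% of all genes) and 2 had groups that did not overlap (9.97% of all genes). Rest, a repressor that silences Nppa and Nppb in the ventricle, was at 43.4 ± 4.22 CPM in control against 52.4 ± 2.37 CPM in GR-cKO hearts (log2 fold change 0.27, SE 0.126, unadjusted p = 0.0439, edgeR adjusted p = 0.998). All GR-cKO hearts lay above the control hearts for Rest, as for 4.7% of all genes. Srf, the serum response factor, was at 239, 192 and 182 CPM in the control hearts, against 188, 347 and 271 CPM in the GR-cKO hearts (log2 fold change 0.39, SE 0.191, edgeR adjusted p = 0.998). GR-cKO replicates 2 and 3 were the highest hearts for Srf as they were for Nppb, though in the opposite order, and a link between these genes was not tested. Gata4, a GATA factor of the heart, was at 27.1 ± 2.84 and 32.5 ± 5.63 CPM (log2 fold change 0.26, SE 0.156, edgeR adjusted p = 0.998). Gata6, the other GATA factor listed, stood higher, at 165 ± 18.8 and 151 ± 10.9 CPM (log2 fold change -0.13, edgeR adjusted p = 0.998).

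Other protein-coding genes lie within 100 kb of the Nppb and Nppa pair. The log2 fold changes of the 5 described here ran from -0.25 to 0.15, and 0 passed the edgeR test. Mfn2, which encodes a mitochondrial fusion protein, was at 321 ± 8.03 CPM in control against 319 ± 16.5 CPM in GR-cKO hearts (log2 fold change -0.01). Clcn6, a chloride and proton exchanger gene beside Nppa on the opposite strand, was at 10.6 ± 0.689 and 11.2 ± 2.17 CPM (log2 fold change 0.07). Agtrap, which encodes an angiotensin receptor-associated protein, was at 33.6 ± 2.98 and 28.3 ± 0.104 CPM (log2 fold change -0.25, SE 0.137, edgeR adjusted p = 0.998). Its groups did not overlap, and 5.27% of all genes had GR-cKO entirely lower. The log2 fold changes of Plod1 (0.15) and 2510039O18Rik (0.08) were as small. Draxin, with 2 to 11 reads per library, was not tested.

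The genes most like Nppa across the 6 libraries were Ndufaf5 (r = 0.991), Mlana (r = 0.982) and March2 (r = 0.980), by Pearson's r of log2 CPM among 10230 other genes with a mean of at least 5 CPM. Spearman's rho was 1, 0.943 and 1 for them. Those most like Nppb were Pptc7 (r = 0.993), Cept1 (r = 0.992) and Rbm38 (r = 0.991), with rho of 0.943, 1 and 1. The values describe 6 points that share libraries, and 59 and 94 genes exceeded r = 0.9 with Nppa and Nppb. Without the 2 libraries farthest from the median, r was 0.9 to 0.975 for the genes like Nppa and 0.963 to 0.975 for those like Nppb. The genes were picked for their r over these same libraries, so these values are no separate check. How many genes would exceed r = 0.9 by chance was not tested. The patterns of the 2 peptide genes were led by different hearts, control replicates 1 and 2 for Nppa and GR-cKO replicates 1 and 3 for Nppb.

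Other cell types that a whole heart holds gave 0 calls among the listed markers. Over all genes 48.7% of estimates were negative. Fibroblast markers summed to 4505 to 5474 CPM in control against 4278 to 4494 CPM in GR-cKO hearts, ranges that did not overlap, with 9 of 11 estimates negative (median -0.11). Without Col3a1, the most abundant of them, they summed to 3435 to 4251 and 3369 to 3519 CPM and overlapped. Mural cell markers summed to 1699 to 1935 and 1982 to 2220 CPM, also without overlap, and 4 of 10 estimates were positive (median -0.03). Without Acta2, the most abundant of these (926, 777 and 720 CPM in the control hearts, against 1096, 1125 and 1090 CPM in the GR-cKO hearts, unadjusted p = 0.00084, edgeR adjusted p = 0.998), they summed to 968 to 1009 and 857 to 1130 CPM and overlapped. Both sums were formed after the values had been seen. Ventricular markers summed to 32884 to 43184 and 39753 to 47082 CPM, with 8 of 10 positive (median 0.10). Markers of the conduction system summed to 192 to 213 and 188 to 236 CPM (median 0.04), of macrophages to 157 to 190 and 165 to 199 CPM (0.08), and of erythroid cells to 6563 to 9231 and 6799 to 7787 CPM (-0.10). Of the 6 lung markers Sftpd was at 0. Sftpc had 0 reads in each control heart, against 7, 3 and 43 reads in the GR-cKO hearts. Sftpb went the other way, with 0, 5 and 0 reads in the control hearts and 0 in each GR-cKO heart. The list summed to 0.437 to 0.892 CPM in control hearts and to 1.06 to 3.28 CPM in GR-cKO hearts, ranges that did not overlap. The part of these in the values of the members was not tested.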

How the data were processed

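RNA of P7 hearts was made into QuantSeq 3′ mRNA-Seq FWD libraries from 100 ng of total RNA, per the labels' protocols. The authors deposited raw read counts per Ensembl gene, 1 library per file, not normalized. STAR 2.5.4a, cutadapt 1.16, featureCounts 1.6.2, FastQC 0.11.7, DESeq2 1.18.1, bcl2fastq and MultiQC 1.5, with the build GRCm38, are named in the submitters' processing notes. Annotation release and strand setting were not given in the sources used here. Symbols and coordinates came from GENCODE M21 (52403 of 52550 genes matched), and spike-in rows (1.63 to 2.01% of reads) were left out.

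The genotype was tested over all genes kept by filterByExpr (14860) with edgeR 4.0.16 (R 4.3.3): TMM, robust quasi-likelihood F test, Benjamini-Hochberg adjustment, threshold 0.05. CPM are relative to the reads of tested genes times the TMM factor, log2 CPM used a prior count of 2, and SEs and 95% intervals follow the F statistic. Ratios within a library were compared with exact permutation tests. Alternatives were DESeq2 1.42.0, limma 3.58.1 (voom), library totals, ERCC scaling, no filter, a replicate block, sex as a term, and each library left out.

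Named genes were the 8 members, Nr3c1, the 3 of smallest p of each pathway list, coding genes within 100 kb of Nppb and Nppa (1 is not reported here), and the 3 genes most like Nppa and Nppb. Markers and other genes named beside them illustrate lists or overlaps. Members and lists were chosen with earlier results of these data known. Intervals cover the error of the fit, which includes the spread between libraries, and floors cover counting error only. Reads carry no molecular identifiers here as far as the labels say. Libraries of every pair differed by a chi-square of at least 10.1 per degree of freedom, so none was a copy.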

Additional observations from a re-analysis of the deposited data

How the results depend on the processing

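No member passed the threshold in any of the 13 alternative fits, and Nppb, Npr3 and Corin kept their direction in all of them. For Corin, whose groups did not overlap, leaving out 1 heart could hardly turn the direction. The direction turned for Nppa without control replicate 2 (0.05), Npr1 without GR-cKO replicate 1 (-0.02), Npr2 without control replicate 1 (0.06) or without replicate 3 of GR-cKO (0.04), and Furin without GR-cKO replicate 3 (-0.11). With 1 heart left out at a time, log2 fold changes ran from -0.32 to 0.05 for Nppa, 0.05 to 0.75 for Nppb, -0.02 to 0.25 for Npr1, -0.28 to 0.06 for Npr2, -0.23 to -0.06 for Npr3, -0.39 to -0.22 for Corin and -0.11 to 0.33 for Furin. Corin had an unadjusted p under 0.05 in 10 of 13 alternatives, and 0.131 with ERCC scaling, 0.130 without control replicate 1 and 0.118 without GR-cKO replicate 2. Over all genes the counts called higher and lower were 1 and 3 with DESeq2, 4 and 6 without the filter, and 0 and 2 with library totals, without GR-cKO replicate 2 or without GR-cKO replicate 3, against 0 and 1, and the cause was not tested. Unadjusted p-values under 0.05 split into 308 higher and 316 lower genes, 170 and 361 with library totals and 134 and 87 with ERCC scaling. With 1 heart left out at a time, 1 to 2 genes were called lower. Same-numbered libraries of the groups had correlated deviations of 0.062, 0.0562 and 0.0144, against -0.0893 to 0.0294 for libraries of different numbers. Correlations this small cannot decide whether the numbers pair the libraries. With the replicate block 0 members and 1 gene (lower) were called, and log2 fold changes were -0.11 for Nppa, 0.21 for Nppb and -0.31 for Corin. The other members' values changed no call. The ratios had no call to change, since 3 against 3 cannot give an exact p under 0.1. With 1 heart left out at a time, the difference of mean log2 ratios ran from -0.07 to 0.80 for Nppb to Nppa and from -0.42 to 0.08 for Corin to Nppa. It ran from -0.02 to 0.52 for Npr1 to Npr2, -0.08 to 0.14 for Nppa to the atrial markers and -0.41 to -0.04 for Npr3 to Npr1. At 76 to 293 reads, Nppb had the fewest reads of the tested members. Its interval was the widest, and its pooled SD, 44.3% of the mean, exceeded that of 99% of the genes of like level (median 17.7%). The part of read number and of scatter between hearts in this width was not tested.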

Other observations

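The 2 libraries marked as female, replicate 1 of each group (12856 and 12790 Xist reads, against 4 to 12 in the others), were the lowest of their group for Nppa (1155 and 1290 CPM, against 1620 and 1957 in the other control and 1439 and 1566 in the other GR-cKO hearts). They were also the lowest of their group for Npr3 (27.9 and 24.4 CPM) and the highest for Npr2 (16.5 and 14.9 CPM). For Nppb they lay on opposite sides, the highest of the control hearts (10.1 CPM) and the lowest of the GR-cKO hearts (4.24 CPM). With sex added to the edgeR model, the genotype log2 fold changes were -0.11 for Nppa and 0.21 for Nppb (adjusted p = 0.999 for both). With 2 such libraries, which also share a replicate number, these values are a description and were not tested as a difference between sexes.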
